A study of Mus musculus with 267 samples.

Results

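PPARg occupancy was measured by ChIP-seq at 4677 sites in bone marrow-derived macrophages (BMDMs) after 24 h of IL-4, with and without the transcription factor EGR2. The comparison held 4 libraries of the 267 samples in the series: 2 from LyzMCreEgr2flfl BMDMs and 2 from Egr2flfl BMDMs, each treated with IL-4 at 20 ng/mL for 24 h. The 4 untreated (basal) PPARg libraries of the same genotypes, 2 each, gave the starting level. All 4677 sites of the table were used, with no choice by PPARg level. Each site is a 300 bp window on a peak where EGR2 binding was induced by 24 h of IL-4 in C57 macrophages, of which 2606 lay in introns and 2071 between genes.

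Both genotypes carried the loxP-flanked (floxed) Egr2 alleles, and the LyzMCreEgr2flfl mice also carried Cre under the LyzM promoter, which is active in myeloid cells. Marrow from young adult female mice was differentiated in M-CSF, for 7 days by the labels, and chromatin was fixed with a double cross-link of DSG and formaldehyde before precipitation with 2 PPARg antibodies. No EGR2 ChIP-seq library of the deleted genotype was analysed here, so the loss of EGR2 could not be checked in these values. The table holds EGR2 sites alone, and PPARg elsewhere in the genome was not analysed here. Of the sites, 5 lay nearest to 4 of the 11 macrophage marker genes, and 0 lay nearest to the T cell, B cell, neutrophil, fibroblast or dendritic cell markers examined. The same site list holds for every library, so these counts do not check the cell type of a library.

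PPARg is a nuclear receptor that is activated by fatty acids and their derivatives and binds DNA together with RXR, typically at direct repeats of the hexamer AGGTCA. In macrophages it controls genes of lipid uptake, storage and efflux, and IL-4, acting through STAT6, raises its expression and activity. EGR2 is a zinc finger factor induced by IL-4 in these cells, and PU.1 and C/EBPb are macrophage factors that occupy many of the same enhancers.

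The windows of a few sites whose PPARg values are given below are printed here. They were read from the mm10 (GRCm38) genome on the forward strand, and capitals mark the hexamer AGGTCA or its reverse complement TGACCT.
Socs1 site, chr16:10702416-10702715: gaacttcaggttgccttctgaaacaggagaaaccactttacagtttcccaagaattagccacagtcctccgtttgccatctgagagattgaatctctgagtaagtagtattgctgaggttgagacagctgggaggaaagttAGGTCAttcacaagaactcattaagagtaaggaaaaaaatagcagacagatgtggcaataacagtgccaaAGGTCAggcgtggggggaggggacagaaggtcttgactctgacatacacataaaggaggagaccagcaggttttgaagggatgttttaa
Cd36 site, chr5:17876634-17876933: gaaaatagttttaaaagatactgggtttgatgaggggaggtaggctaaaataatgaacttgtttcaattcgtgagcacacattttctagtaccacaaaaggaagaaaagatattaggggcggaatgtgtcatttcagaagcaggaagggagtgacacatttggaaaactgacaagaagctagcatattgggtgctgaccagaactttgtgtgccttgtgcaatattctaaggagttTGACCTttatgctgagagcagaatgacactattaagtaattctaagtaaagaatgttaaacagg
Arg1 site, chr10:24931519-24931818: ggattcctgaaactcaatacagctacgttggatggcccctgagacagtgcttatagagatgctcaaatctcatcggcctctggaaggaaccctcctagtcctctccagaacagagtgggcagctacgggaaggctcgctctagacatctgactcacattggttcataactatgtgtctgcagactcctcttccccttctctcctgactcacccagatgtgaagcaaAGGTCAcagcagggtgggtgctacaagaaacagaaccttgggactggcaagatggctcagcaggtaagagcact
Abcg1 site, chr17:31040515-31040814: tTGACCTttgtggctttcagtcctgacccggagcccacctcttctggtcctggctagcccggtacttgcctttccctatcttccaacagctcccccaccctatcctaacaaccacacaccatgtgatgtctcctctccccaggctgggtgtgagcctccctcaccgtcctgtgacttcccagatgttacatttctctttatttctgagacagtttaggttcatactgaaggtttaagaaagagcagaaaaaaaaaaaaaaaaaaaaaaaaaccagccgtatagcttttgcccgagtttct
Psap site, chr10:60253509-60253808: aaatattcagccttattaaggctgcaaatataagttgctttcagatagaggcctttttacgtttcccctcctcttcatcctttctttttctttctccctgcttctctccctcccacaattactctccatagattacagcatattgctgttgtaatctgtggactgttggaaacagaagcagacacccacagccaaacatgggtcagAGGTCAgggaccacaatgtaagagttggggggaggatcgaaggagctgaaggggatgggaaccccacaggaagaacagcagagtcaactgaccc

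The Socs1 window held 2 hexamers and the other printed windows held 1 each, so these windows are not typical of all sites in this respect. Over all sites, 944 windows (20.2%) held AGGTCA on either strand, against 16.3% of 32851 RefSeq mouse promoters (GRCm38.p6) of the same length. A looser PPAR-RXR direct repeat, 2 copies of AGGNCA 1 base apart, was found in 24 windows (0.513%) and in 0.381% of promoters. Letters of the EGR motif GCGNGGGCG were found in 74 windows (1.58%) and in 5.55% of promoters. The sites lie in introns or between genes, with a median GC content of 47%. The promoters were not matched to them in position or base composition, so these shares do not test enrichment of a motif. A match is a description of the letters and not a mapped binding site.

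PPARg signal at these sites was lower without Egr2. Of all tags of a library, 0.805% and 1.07% lay in the sites in the Egr2flfl libraries at 24 h, and 0.381% in each of the LyzMCreEgr2flfl libraries. The groups did not overlap, and the mean share was 2.46-fold higher in Egr2flfl (0.936 ± 0.186% against 0.381 ± 0.000277%, SD, n = 2 each). An exact permutation test over libraries gave p = 0.333 (two-sided), the smallest value that 2 against 2 libraries allow. The mean PPARg level per site was 17.2 and 22.8 normalized tags (tags per 10000000 of the library) in Egr2flfl and 8.14 and 8.15 in LyzMCreEgr2flfl. In bulk chromatin, fewer cells with PPARg bound and less PPARg per cell cannot be told apart.

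Before IL-4 the order of the mean tag shares was the other way. The basal libraries held 0.260% and 0.158% of their tags in the sites in Egr2flfl, and 0.343% and 0.408% in LyzMCreEgr2flfl, again with no overlap, a ratio of 1.80 (exact permutation p = 0.333). This ratio was 2.30 at the 261 sites with a mean level of at least 32 normalized tags, and 0.723 at the 1228 sites below 2. Over single sites the median basal difference was 0, with 2293 sites higher and 1821 lower in LyzMCreEgr2flfl. The basal counts also depended on scaling, as given below. IL-4 therefore went with a 4.48-fold higher mean level in Egr2flfl (4.47 ± 1.53 to 20.0 ± 3.98 normalized tags) and a 1.01-fold level in LyzMCreEgr2flfl (8.03 ± 0.986 to 8.14 ± 0.00535, SD, n = 2 each). The LyzMCreEgr2flfl libraries at 24 h lay between that genotype's basal libraries, at 7.34 and 8.73.

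**Figure D1:**
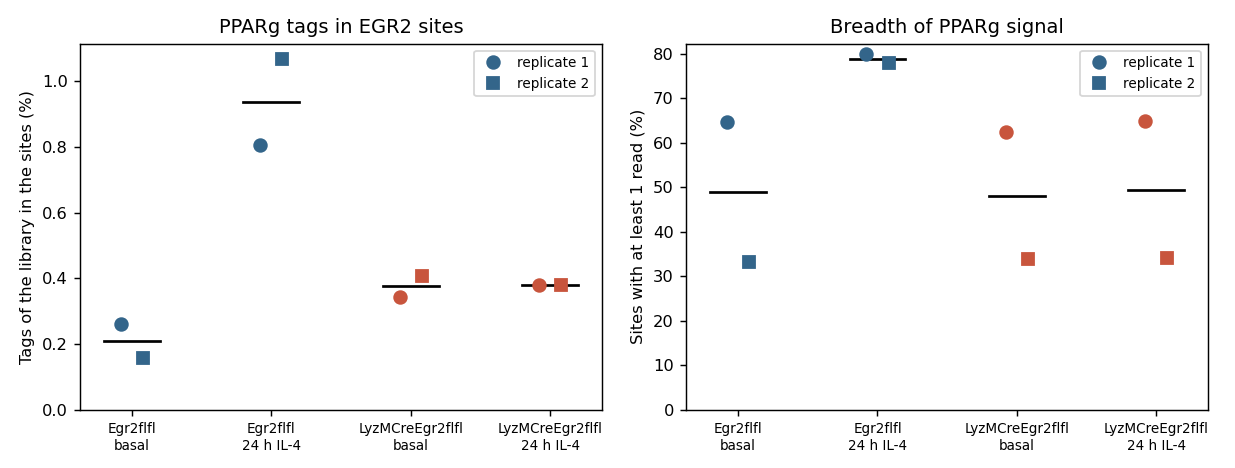
Each point is 1 PPARg library, by genotype and treatment; the left axis gives the percent of the library's tags in the 4677 sites and the right panel the percent of sites with at least 1 read. Tag shares were 0.805% and 1.07% in Egr2flfl at 24 h and 0.381% in both LyzMCreEgr2flfl libraries, and 3 of the 8 libraries had a read at only 33.2% to 34.1% of sites.

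The libraries differed in depth and in how evenly they covered the sites. Totals ran from 6346277 to 14386061 tags, so 3 reads correspond to between 2.09 and 4.73 normalized tags per site. At least 1 read was present at 79.9% and 78.1% of sites in Egr2flfl at 24 h, but at 65.0% and 34.1% in LyzMCreEgr2flfl at 24 h. The second LyzMCreEgr2flfl library at 24 h and both second basal libraries had 65.9% to 66.8% of sites at 0, and among sites with a read their commonest count was 5 to 7 reads against 1 to 3 in the other libraries. These 3 libraries are called sparse below, where some results are also given without them. The cause of their coverage was not tested. Library 1 alone of each genotype at 24 h gave the same order in the mean level per site, 17.2 against 8.14.

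Across single sites the difference lay mostly in 1 direction. PPARg was lower in LyzMCreEgr2flfl at 3755 sites, higher at 692 and equal at 230, with a median log2 difference of -1.28 over all sites (log2 of normalized tags plus 1). A difference of at least 2.5-fold between group means plus 1, with at least 8 normalized tags in the higher mean, was met downward at 1476 sites (31.6%) and upward at 79 (1.69%). Both LyzMCreEgr2flfl libraries lay below both Egr2flfl libraries at 1876 sites (40.1%) and above them at 75 (1.6%). Both criteria together were met by 1207 sites downward and by 34 upward. Without the 3 sparse libraries, an alternative added after the data were seen, 1436 sites were at least 2.5-fold lower and 80 higher. The median log2 difference was then -1.03.

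With 2 libraries a group, no site passed limma's test over all 4677 sites. The smallest Benjamini-Hochberg adjusted p was 0.137, and at an unadjusted p below 0.05 there were 653 sites lower and 17 higher. The edgeR quasi-likelihood test on the recovered whole reads, scaled to library totals, called 2 sites lower (nearest Socs1 and Tex9). With TMM scaling edgeR called 0, and DESeq2 called 0. Limma restricted to the 1443 sites with a mean of at least 8 normalized tags over the 8 PPARg libraries called 13 sites lower and 0 higher. Leaving out the first or the second Egr2flfl library at 24 h gave a median log2 difference of -1.55 or -1.11. Leaving out the second, sparse LyzMCreEgr2flfl library at 24 h gave -1.03. Each of these fits leaves 1 library in a group, so limma calls would rest on that library and are not given. The count of sites at least 2.5-fold lower rests on scaling to library totals: under median-ratio scaling, which sets the 422 sites with reads in every PPARg library equal on average, 410 sites were lower and 196 higher, or 67.7% of the differences downward against 94.9%, and the median difference was -0.61.

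**Figure D2:**
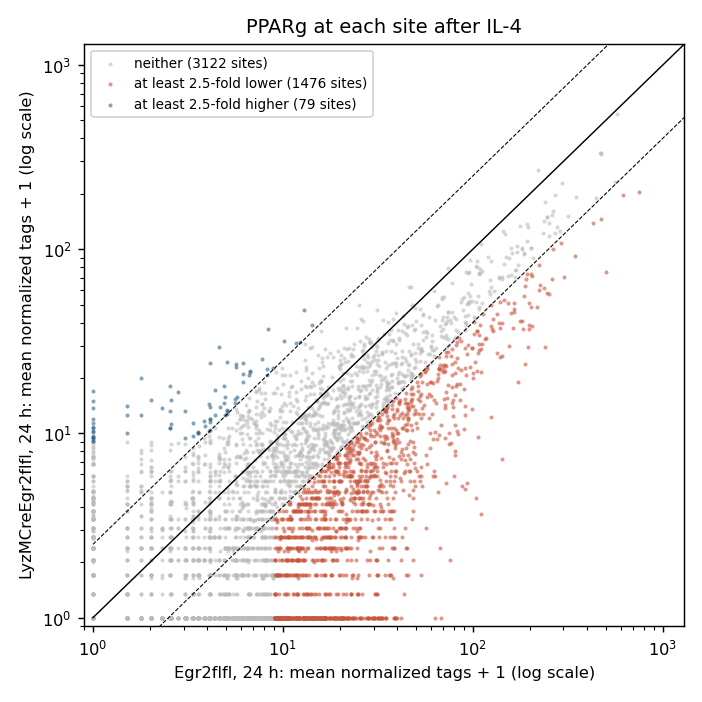
Each point is 1 of the 4677 sites, placed by its mean PPARg level plus 1 at 24 h in Egr2flfl (x) and LyzMCreEgr2flfl (y) in normalized tags, both on log scales, n = 2 libraries each. The 1476 sites at least 2.5-fold lower in LyzMCreEgr2flfl lie below the diagonal and the 79 at least 2.5-fold higher lie above it.

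At baseline the same criterion was met downward at 124 sites (2.65%) and upward at 618 (13.2%), and limma called 0 (65 lower and 207 higher at an unadjusted p below 0.05). With IL-4, PPARg met it upward at 1980 sites (42.3%) and downward at 28 (0.599%) in Egr2flfl. In LyzMCreEgr2flfl the IL-4 counts were 408 upward (8.72%) and 375 downward (8.02%). At the 1980 sites that met the criterion upward in Egr2flfl, the LyzMCreEgr2flfl mean was 14.5 in each library at 24 h and 12.8 and 15.1 at baseline. Of those sites, 253 (12.8%) met it upward in LyzMCreEgr2flfl and 204 (10.3%) downward. The genotype by IL-4 interaction had a median of -1.50 on the log2 scale, and limma called 0 sites (580 lower and 24 higher unadjusted). Among sites with a mean of at least 8 it called 47 lower. The edgeR counts were 10 lower with library totals and 0 with TMM scaling. With median-ratio scaling that median was -0.39, with 222 lower and 47 higher unadjusted, and by DESeq2 it was -0.19, with 50 and 43. With library totals, the interaction draws on the higher mean baseline of LyzMCreEgr2flfl as well as on its lower level at 24 h. Under median-ratio scaling the counts were 645 lower and 353 higher at baseline, and 405 lower and 393 higher with IL-4 in Egr2flfl.

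The difference was seen at strong and weak PPARg sites alike. At 310 sites that overlapped a PPARg peak of C57 macrophages both before and after 24 h of IL-4, the mean level was 105.6 ± 15.5 in Egr2flfl and 50.0 ± 0.320 in LyzMCreEgr2flfl, a ratio of 2.11. At 1609 sites with a C57 PPARg peak after IL-4 alone, the levels were 24.4 ± 4.84 and 8.88 ± 0.0904, a ratio of 2.75. Sites with no C57 PPARg peak numbered 2746 and had 7.78 ± 2.17 and 2.98 ± 0.0930, a ratio of 2.61. The level thus differed far more between these classes than the genotype ratio did. Under median-ratio scaling the ratios of the 3 classes were 1.03, 1.33 and 1.26, in the same direction but close to 1 at the sites bound before and after IL-4. IL-4 ratios at the sites bound after IL-4 alone were 5.14 in Egr2flfl and 1.11 in LyzMCreEgr2flfl.

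**Figure D3:**
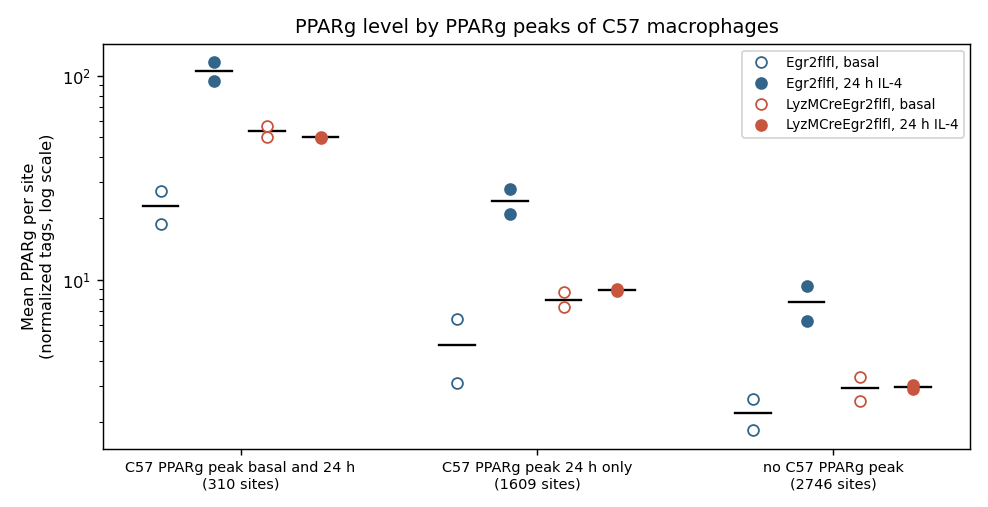
Mean PPARg level per site in normalized tags (log axis) for 3 classes of sites defined by PPARg peaks of C57 macrophages; each point is 1 library, filled at 24 h of IL-4 and open at baseline, coloured by genotype. In each class both LyzMCreEgr2flfl libraries at 24 h lie below both Egr2flfl libraries.

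The ratio was above 2 in each of the following groupings of the sites, and above 1 under median-ratio scaling. Grouped by how many of the 5 mouse strains had a PPARg peak there at 24 h, from 0 to 5, the ratios were 2.57, 2.49, 2.70, 2.66, 2.51 and 2.31. Introns and intergenic sites had ratios of 2.44 and 2.48. In 4 groups of about equal size, from the weakest to the strongest EGR2 signal in C57, the ratios were 2.30, 2.41, 2.58 and 2.48, and the share of sites at least 2.5-fold lower was 24.1%, 28.7%, 33.2% and 40.2%, against 31.6% of all sites. That share needs a level of 8 normalized tags, and the mean PPARg level in Egr2flfl was also higher from group to group, at 14.2, 16.3, 21.3 and 28.3. Sites of STAT6 binding after IL-4 alone had a ratio of 2.92, against 2.17 where STAT6 was bound before and after, and for PU.1 the same classes had 2.93 and 2.24. No test was made between classes, because sites are not replicates of a genotype.

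Windows with and without AGGTCA had ratios of 2.41 and 2.48. The 24 windows with the looser direct repeat had a mean of 50.1 in Egr2flfl and 14.3 in LyzMCreEgr2flfl, a ratio of 3.50 (1.72 under median-ratio scaling), with 15 of them (62.5%, against 31.6% of all sites) at least 2.5-fold lower and 0 higher. Over all sites the Egr2flfl mean was 20.0, and the criterion asks for a mean of 8 in 1 genotype. The 74 windows with GCGNGGGCG had low PPARg, 3.97 and 2.56, with a ratio of 1.55. Under median-ratio scaling that ratio was 0.74, with 31 sites lower and 31 higher. The 304 windows with the looser EGR letters GCGNGGGNG had 10.0 and 4.08, a ratio of 2.46 (1.20 under median-ratio scaling). For the 5 sites of highest level among the 24 windows with the looser direct repeat, chosen after their values were seen, a repeat is shown in capitals. The letters are those of the forward strand of mm10. At Tmem189 a pair of overlapping matches runs together, and the Mdm1 window holds a further match that is not shown.
Phlda1 site, chr10:111544133-111544193: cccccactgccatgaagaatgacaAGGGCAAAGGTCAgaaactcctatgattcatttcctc
Tmem189 site, chr2:167724041-167724101: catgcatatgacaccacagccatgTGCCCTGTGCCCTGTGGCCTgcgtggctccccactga
Cd9 site, chr6:125484830-125484890: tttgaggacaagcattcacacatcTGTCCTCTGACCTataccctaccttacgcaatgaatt
Mdm1 site, chr10:118096326-118096386: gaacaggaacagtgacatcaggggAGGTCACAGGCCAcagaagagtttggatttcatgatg
Gsap site, chr5:21131305-21131365: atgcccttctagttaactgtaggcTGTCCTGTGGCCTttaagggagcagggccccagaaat

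The site nearest Phlda1 had 230.4 and 239.5 normalized tags in Egr2flfl and 92.5 and 189.9 in LyzMCreEgr2flfl, 1.66-fold lower. The intronic site of Cd9, a tetraspanin gene, had 230.4 and 160.7 against 47.3 and 24.6, 5.45-fold lower, and the site nearest Tmem189 had 141.3 and 252.1 against 38.2 and 37.5, 5.20-fold lower. At Mdm1 and Gsap the ratios were 4.94 and 5.56. At each of these 5 sites the genotypes did not overlap, as at 40.1% of all sites, and the limma adjusted p was 0.162 or more.

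Sites are named below by the nearest start of a protein-coding gene, which is not evidence that the site regulates that gene. The strongest PPARg site in Egr2flfl at 24 h lay in an intron of Clec16a, 82971 bp from the start of Socs1, which encodes a feedback inhibitor of cytokine signalling through JAK and STAT proteins. It had 1042.5 and 453.8 normalized tags in Egr2flfl and 173.8 and 235.1 in LyzMCreEgr2flfl, a 3.66-fold lower mean. Basal levels there were 168.7 and 61.7 in Egr2flfl and 117.1 and 168.5 in LyzMCreEgr2flfl, so the LyzMCreEgr2flfl libraries at 24 h sat just above their baseline. The edgeR adjusted p with library totals was 0.0314 (log2 difference -1.87), and limma gave -1.76 ± 0.61 (SE) with an adjusted p of 0.305. With median-ratio scaling the limma difference was -0.74.

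An intronic site of Tex9 (chr9:72485486-72485785) had 315.4 and 690.2 normalized tags in Egr2flfl at 24 h against 54.9 and 94.3 in LyzMCreEgr2flfl, 6.74-fold lower. It was at 0 and 1.01 at baseline in Egr2flfl, and at 4.26 and 0 in LyzMCreEgr2flfl. Both genotypes were therefore higher at 24 h than at baseline at this site. For the genotype difference at 24 h, the edgeR adjusted p with library totals was 0.0460, and limma's was 0.332. The other strong sites differed among themselves. At Pik3r5, which encodes a regulatory subunit of phosphoinositide 3-kinase gamma, PPARg was at 693.3 and 545.2 against 128.6 and 264.8, and at Bcar3, an adaptor protein gene, at 543.8 and 578.3 against 319.1 and 143.4. The site nearest Chic2 had a smaller difference, 394.3 and 549.9 against 318.4 and 348.8, 1.42-fold, and at baseline it had 83.0 and 73.9 in Egr2flfl but 297.1 and 315.4 in LyzMCreEgr2flfl. Its direction at 24 h turned under median-ratio scaling, from -0.48 to 0.54 on the log2 scale. At Angptl4, whose secreted product inhibits lipoprotein lipase, the groups overlapped: 164.9 and 975.4 in Egr2flfl, and 581.1 and 506.4 in LyzMCreEgr2flfl. Its basal levels of 55.6 and 188.2 in Egr2flfl lay below those of 540.9 and 397.4 in LyzMCreEgr2flfl.

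**Figure D4:**
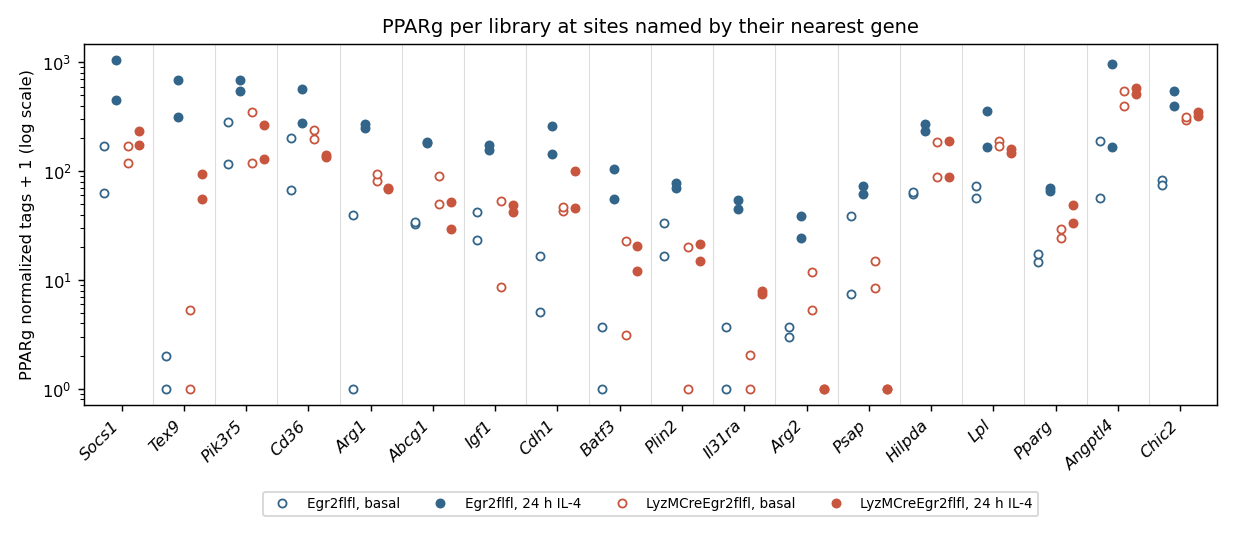
PPARg normalized tags plus 1 per library (log axis) at 18 sites named by their nearest gene; filled points are 24 h of IL-4, open points are basal, and colour gives the genotype. The filled points of the genotypes are apart at each site except Angptl4.

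Among PPARg pathway and lipid genes, 17 of the 49 listed had at least 1 site, 36 sites in all. Of these, 12 were at least 2.5-fold lower and 1 higher (33.3% lower, against 31.6% of all sites), 19 had no overlap downward (52.8%, against 40.1%) and 3 upward, where 75 of all sites (1.60%) had none upward, and the median log2 difference was -1.74 against -1.28 over all sites. The intronic Cd36 site, in the gene of a fatty acid and scavenger receptor, had 572.5 and 278.9 normalized tags in Egr2flfl and 134.8 and 139.5 in LyzMCreEgr2flfl, 3.10-fold lower. Its basal levels were 199.7 and 65.8 in Egr2flfl and 194.8 and 238.1 in LyzMCreEgr2flfl, so the LyzMCreEgr2flfl libraries were lower after IL-4 than before. At Abcg1, which encodes a cholesterol exporter, a site 17011 bp upstream had 180.2 and 182.8 against 50.7 and 28.4, 4.59-fold lower, with replicates close together. Limma's log2 difference there was -2.23 ± 0.53 (SE), adjusted p = 0.189.

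Differences near genes of lipid droplets and lipolysis varied in size. Upstream of Plin2, the gene of a lipid droplet coat protein, PPARg was at 68.6 and 77.2 in Egr2flfl and 13.9 and 20.7 in LyzMCreEgr2flfl, 4.22-fold lower. Near Hilpda, a lipid droplet protein gene, it was at 270.4 and 233.2 against 88.3 and 188.6, 1.82-fold. Downstream of Lpl, the lipoprotein lipase gene, it was at 166.9 and 356.1 against 160.6 and 144.7, 1.71-fold. The Lpl libraries were close to overlapping. At the Pparg gene itself, a site 17097 bp upstream had 65.5 and 69.3 against 32.7 and 47.8, 1.68-fold, and Ppargc1b, a coactivator gene, had a weak site at 12.3 and 22.1 against 3.48 and 0. Under median-ratio scaling the log2 differences turned to 0.06 at Hilpda, 0.34 at Lpl and 0.25 at Pparg, while Abcg1 had -1.21 and Cd36 -0.52. The median over the 36 sites was then -0.88, but their mean level was 27.7 in Egr2flfl and 31.5 in LyzMCreEgr2flfl, so mean and median pointed in opposite directions.

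Alternative activation genes had a site near 30 of 49, with 75 sites. PPARg was at least 2.5-fold lower at 33 (44.0%, against 31.6% of all sites) and higher at 1, a weak site near Mmp12 with 21.96 normalized tags in 1 LyzMCreEgr2flfl library and 0 in the other 3. The strongest Mmp12 site had 47.1 and 39.4 in Egr2flfl and 13.9 and 33.6 in LyzMCreEgr2flfl, 1.82-fold lower without overlap (limma adjusted p = 0.757). The 2.5-fold criterion needs a level of 8 normalized tags, reached by 52 of the 75 sites and by 2576 of all sites (57.3% of them lower). The libraries did not overlap downward at 40 sites (53.3%, against 40.1%), and the median difference was -1.52. At an unadjusted limma p below 0.05, 18 of the 75 sites were lower and 0 higher, against 653 and 17 of all 4677 sites. The Arg1 site, 4184 bp upstream of the arginase 1 gene, had 268.3 and 250.5 in Egr2flfl and 68.8 and 67.2 in LyzMCreEgr2flfl, 3.82-fold lower. Its baseline was 38.3 and 0 in Egr2flfl and 80.9 and 92.8 in LyzMCreEgr2flfl, where the 24 h level was thus below the basal one, and all 3 sites near Arg1 were at least 2.5-fold lower. With median-ratio scaling the list median was -0.74 and the Arg1 difference -0.90.

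Other sites of the list lay near growth factor, adhesion and receptor genes, and limma called none of them. Upstream of Igf1, the insulin-like growth factor 1 gene, it was at 172.1 and 154.4 against 48.0 and 41.3, 3.66-fold lower, and 4 of the 7 sites near that gene were at least 2.5-fold lower. In Cdh1, which encodes E-cadherin, it was at 143.4 and 260.0 against 44.5 and 99.5, 2.80-fold lower. Near Batf3, a transcription factor gene, it was at 54.3 and 104.0 against 11.1 and 19.4, 5.19-fold lower. These 3 sites had no overlap between genotypes. The Il31ra intron, in a cytokine receptor gene, had 53.2 and 44.1 against 6.95 and 6.46, 7.26-fold lower, and the Itgax intron, in the CD11c gene, 28.7 and 36.2 against 5.56 and 0, 11.7-fold lower. The Arg2 intron, in the gene of the second arginase, had 23.6 and 37.8 against 0 and 0, at least 21.5-fold lower when the LyzMCreEgr2flfl group is set at the floor of 3 reads over both libraries.

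Not every site of the list was lower. Near Mgl2, a lectin gene of IL-4-treated macrophages, PPARg was at 25.6 and 31.5 in Egr2flfl and 22.2 and 34.9 in LyzMCreEgr2flfl. Near Atp6v0d2, a proton pump subunit gene, it was at 16.4 and 22.1 against 17.4 and 28.4. The genotypes overlapped at both, and at the strongest sites near Myc and Dcstamp. They also overlapped at the strongest sites near Ch25h and Klf4, where the LyzMCreEgr2flfl mean was 2.70-fold and 2.26-fold lower. Smaller differences without overlap were seen in Il4ra, the IL-4 receptor alpha gene, with 62.5 and 86.7 against 41.0 and 40.0, and in Tmem26, with 58.4 and 66.2 against 41.0 and 40.0. Under median-ratio scaling these last differences turned upward, to 0.16 and 0.40 on the log2 scale.

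Inflammatory genes, many of them NF-kB subunits and targets, had a site near 17 of 39, with 30 sites. Of these 14 were at least 2.5-fold lower (46.7%, against 31.6% of all sites) and 0 higher, 17 had no overlap downward (56.7%, against 40.1%), and the median difference was -1.63, against -1.28 over all sites. The level of 8 normalized tags that the criterion needs was reached by 18 of the 30 sites and by 2576 of all sites (57.3% of them lower). With median-ratio scaling the median differences were -1.02 for the list and -0.61 for all sites. The strongest was in Tnfaip3, the gene of the NF-kB inhibitor A20, at 93.2 and 152.8 against 26.4 and 47.8, 3.32-fold lower. Upstream of Ccl2, a monocyte chemokine gene, PPARg was at 64.5 and 66.2 against 22.9 and 27.1, and in Rel, an NF-kB subunit gene, at 28.7 and 28.4 against 3.48 and 1.29. At Tlr4, the endotoxin receptor gene, the groups overlapped, with 7.17 and 127.6 against 59.8 and 45.2. EGR and NAB genes had 4 sites, near Egr1, Egr2, Egr3 and Nab1. Only the Egr3 site, 25.6 and 41.0 against 15.3 and 9.04, met the 2.5-fold criterion. The site in Egr2, outside its promoter at 3741 bp from the start, had 5.12 and 4.73 normalized tags in Egr2flfl and 0 and 21.96 in LyzMCreEgr2flfl.

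The largest differences downward among sites with no overlap were at sites with 0 reads in both LyzMCreEgr2flfl libraries at 24 h. The second of these libraries is sparse and had 0 reads at 65.9% of all sites. The site 23969 bp upstream of Psap, the gene of the lysosomal protein prosaposin, had 61.4 and 72.5 in Egr2flfl and 0 and 0 in LyzMCreEgr2flfl, at least 48.5-fold lower. It was detected in both genotypes at baseline, at 6.38 and 37.4 in Egr2flfl and at 7.45 and 13.9 in LyzMCreEgr2flfl. Limma's adjusted p was 0.137 over all sites and 0.0358 among the 1443 sites with a mean of at least 8. The next sites, near Setbp1, Lmo4, Tiparp, Car2, Grap, Mrgprg and Nfkb2 (the last inside Psd), were at least 24.7-fold to 30.7-fold lower, with 13.3 to 64.6 normalized tags in the Egr2flfl libraries. The largest differences upward were at weak sites. Near Fubp3, PPARg was at 0 and 0 in Egr2flfl and at 11.1 and 16.8 in LyzMCreEgr2flfl, at least 7.04-fold higher, and near Mall, Rad50 and Sult6b2 at 0 to 1.58 against 2.09 to 31.01, with the adjusted p of the 4 sites between 0.190 and 0.348.

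Besides Psap, Socs1 and Pik3r5, the 13 sites called lower in that smaller set lay nearest Ly75, Mbnl1, Utrn, Gm49339, Xbp1, Atp6v0a1, Klf6, Cdkn2b, Mesp1 and Tchp. Their ratios, Psap left out, ran from 3.15 at Pik3r5 to 9.52 at Cdkn2b. The Cdkn2b site had 128.0 and 217.4 in Egr2flfl and 10.4 and 25.8 in LyzMCreEgr2flfl. Upstream of Atp6v0a1, a subunit gene of the vacuolar proton pump, PPARg was at 214.0 and 174.9 against 32.7 and 24.6, 6.80-fold lower. Near Klf6, a zinc finger factor gene, it was at 231.4 and 203.3 against 70.9 and 24.6. All 3 sites had no overlap between genotypes. At others of the 13 the LyzMCreEgr2flfl libraries were far apart: 45.88 and 0 at Ly75, 38.23 and 0 at Utrn, 0 and 23.25 at Xbp1, and 62.56 and 1.29 at Tchp. At Ly75 limma's adjusted p was 7.3e-05 in this set and 0.301 over all sites, with the same log2 difference of -4.74. The mean of 8 includes the Egr2flfl libraries at 24 h, so a site can pass on their level.

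The smallest p-values of the interaction were at sites nearest Chic2, Med23, Myh10 and P2ry1, each with a limma adjusted p of 0.308. At P2ry1, an ADP receptor gene, PPARg was at 20.1 and 14.2 at baseline and at 185.4 and 215.9 with IL-4 in Egr2flfl, and at 86.2 and 126.8 and then 85.5 and 115.0 in LyzMCreEgr2flfl. In Myh10, a non-muscle myosin gene, the Egr2flfl libraries went from 0.91 and 0 to 75.8 and 41.0 and the LyzMCreEgr2flfl libraries from 28.8 and 23.2 to 24.3 and 11.6. IL-4 thus went with higher PPARg at these sites in Egr2flfl, and in LyzMCreEgr2flfl the basal and IL-4 ranges overlapped at both. The genotype difference at P2ry1 was 0.01 on the log2 scale under median-ratio scaling.

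Other factors at the same sites were lower in LyzMCreEgr2flfl as well. Mean STAT6 per site was 12.5 and 10.1 normalized tags in Egr2flfl and 7.91 and 5.18 in LyzMCreEgr2flfl, C/EBPb was 44.7 and 28.9 against 21.6 and 17.7, and PU.1 was 38.2 and 38.3 against 34.5 and 34.4. Limma called 386 sites lower for C/EBPb (8.25%) and 438 for PU.1 (9.36%), with 4 higher for PU.1 (0.0855%), and 1 for STAT6 (0.0214%), which lay nearest BC017158. With a replicate block the STAT6 count was 196 lower and the C/EBPb count 545 lower. Without the first Egr2flfl library at 24 h each of these counts was 0, as it was for PU.1 and STAT6 without the second Egr2flfl library and for C/EBPb and STAT6 without the second LyzMCreEgr2flfl library. Under median-ratio scaling the counts were 0 for C/EBPb and STAT6, and 243 lower and 143 higher for PU.1. The median log2 differences were -0.79 for STAT6, -0.33 for PU.1 and -1.14 for C/EBPb, beside -1.28 for PPARg. In fits of PPARg together with another factor, limma called 0 sites at which the genotype difference of PPARg differed from that of STAT6, PU.1 or C/EBPb. The unadjusted counts with PPARg lower or higher were 163 and 53 for STAT6, 563 and 73 for PU.1, and 162 and 118 for C/EBPb. The median of the difference was -0.52, -0.84 and -0.14, and the last turned to 0.08 with a pseudocount of 5.

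H3K27ac, a histone mark of active enhancers, was called lower by limma at 1087 sites (23.2%) and higher at 66 (1.41%) in a 1000 bp window, and H3K4me2, a mark of primed and active enhancers, at 418 (8.94%) and 7 (0.15%). Under median-ratio scaling the counts were 496 lower and 536 higher for H3K27ac and 169 and 45 for H3K4me2. Among the 1476 sites with PPARg at least 2.5-fold lower it was called lower at 31.6%, among the 79 with PPARg higher at 11.4%, and among those over the PPARg minimum with neither at 15.5%. C/EBPb was called lower at 10.0%, 3.80% and 3.23% of the same sets, PU.1 at 10.8%, 7.59% and 3.23%, and H3K4me2 at 8.27%, 5.06% and 2.45%. The 2101 sites with a PPARg mean under 8 in both genotypes had 21.6% for H3K27ac, 9.61% for C/EBPb, 11.4% for PU.1 and 12.7% for H3K4me2. The site-by-site correlation of the PPARg and H3K27ac log2 differences was weak, with Pearson's r of 0.13 over 4677 sites and 0.24 over the 1443 sites with a mean of at least 8, a description across sites that share 2 sets of libraries. Mean RNA polymerase II at 24 h, with 1 library a genotype, was 27.1 in Egr2flfl and 23.6 in LyzMCreEgr2flfl, and 21.4 and 21.1 at baseline.

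**Figure D5:**
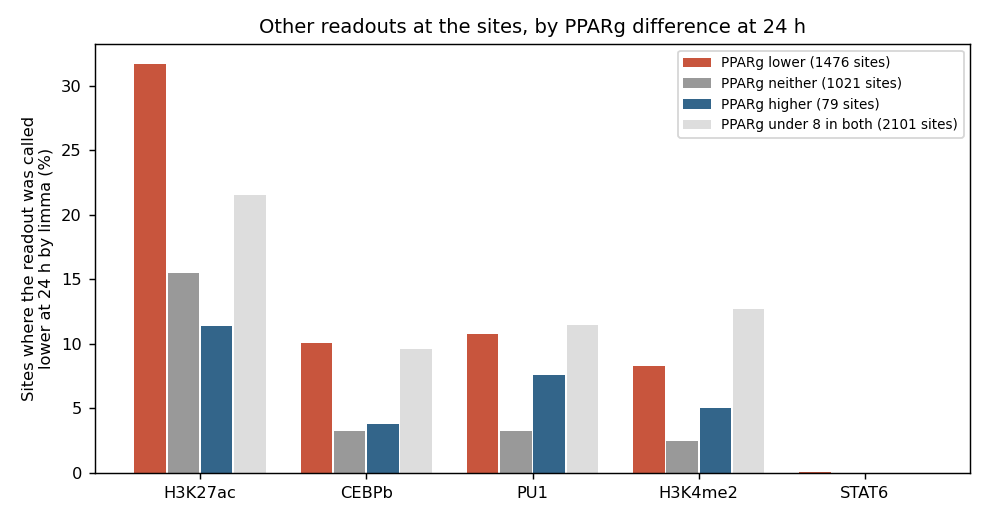
Bars give the percent of sites at which limma called STAT6, PU.1, C/EBPb, H3K27ac or H3K4me2 lower in LyzMCreEgr2flfl at 24 h (n = 2 libraries a group), for sets of sites formed by their PPARg difference. For H3K27ac the bar is 31.6% where PPARg was at least 2.5-fold lower and 15.5% where it met the level minimum and differed less.

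Single sites showed both combinations. At Tex9, H3K27ac was at 110.6 and 86.1 normalized tags in Egr2flfl and 11.4 and 13.9 in LyzMCreEgr2flfl (log2 difference -2.85, limma adjusted p = 0.00099), with PU.1 (-2.41, 0.00454) and C/EBPb (-2.80, 0.0304) lower too. At Psap, H3K27ac was at 353.8 and 351.3 against 170.4 and 193.8 (-0.95, 0.00204), and at Itgax at 96.5 and 86.7 against 21.8 and 12.8 (-2.38, 0.00043). PPARg and the mark were both lower there. At Socs1, by contrast, H3K27ac was at 98.5 and 80.9 in Egr2flfl and 122.6 and 71.4 in LyzMCreEgr2flfl, with overlap (adjusted p = 0.920). At Abcg1 it was at 415.1 and 517.0 against 432.2 and 494.5, and at Arg1 at 170.9 and 160.6 against 152.7 and 135.2 (adjusted p = 0.61). The PPARg level was 3.66-fold, 4.59-fold and 3.82-fold lower at these 3 sites.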

How the data were processed

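ChIP-seq reads were mapped to mm10 with Bowtie2 and tags were counted with HOMER by the authors, who deposited the signal as normalized tags per 10000000 library tags in 300 bp windows (1000 bp for histone marks); duplicate handling is not given in the sources used here. Each deposited PPARg signal value was a whole number of reads within 0.1 read. The deposited tables also hold 4 value columns that matched no sample, which were not used. Peak lists of 5 strains, deposited by the authors with a count score per IDR-reproducible HOMER peak, served to class sites by position alone (overlap of 1 bp). Replicates are biological per the labels, and replicate libraries differed beyond counting noise (chi-square per degree of freedom 8.29 to 10.4).

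Values were taken as log2(normalized tags + 1) and fitted with limma 3.58.1 (trend, 8 libraries per target, genotype, IL-4 and their interaction), with Benjamini-Hochberg adjustment over 4677 sites at 0.05 and no filter. Fold changes on this scale understate changes at low sites. edgeR 4.0.16 and DESeq2 1.42.0 were run on the recovered reads as alternatives, and scripts were tested on simulated data. Library totals were 6346277 to 14386061 tags for PPARg. Counting floors cover counting error only.

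Sites were named by the nearest protein-coding start (GENCODE vM21), since the table names no genes. Named were the 8 largest falls and 4 largest rises without overlap, the 6 highest sites in Egr2flfl, the highest site of each listed gene with a mean of at least 8 normalized tags, 4 interaction sites, and the Egr2 and Mmp12 sites. Other sites were chosen after their values were seen. The comparison and gene lists were chosen with earlier results of these data known. The labels tie replicate numbers to no shared animal or day, and the fits carried no replicate block.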

Additional observations from a re-analysis of the deposited data

How the results depend on the processing

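PPARg results depended on scaling, on the level minimum and on single libraries. Of the 60 named sites, 12 turned sign under median-ratio scaling, none of them past a threshold. Without a filter limma called 0 sites for each PPARg contrast. With the filter of 8 normalized tags it called 13 lower for genotype at 24 h, 14 higher at baseline, 241 higher with IL-4 in Egr2flfl and 47 lower for the interaction. edgeR with library totals called 2 lower, 8 higher, 52 higher and 10 lower for these, and 1 higher with IL-4 in LyzMCreEgr2flfl. edgeR with TMM and DESeq2 each called 1 higher with IL-4 in either genotype. Counts by the 2.5-fold criterion, lower and higher, were 904 and 25 for genotype at 24 h, 9 and 322 at baseline, 3 and 1304 with IL-4 in Egr2flfl and 145 and 157 in LyzMCreEgr2flfl with a minimum of 16. With a pseudocount of 5 the higher count at 24 h was 37, the lower counts were 66 at baseline and 9 with IL-4 in Egr2flfl, and those in LyzMCreEgr2flfl were 245 and 263. Median-ratio scaling gave 410 and 196, 645 and 353, and 405 and 393. The cause of these changes was not tested. Without the 3 sparse libraries, chosen after seeing the data, the lower counts were 305 at baseline and 53 with IL-4 in Egr2flfl. Requiring the peak centre within 150 bp moved the ratio of the sites with a C57 peak at baseline alone from 1.99 to 1.38.

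Leaving out 1 library at a time gave limma counts of 0 to 229 lower and 0 to 24 higher at 24 h, 0 to 50 and 0 to 45 at baseline, 0 to 50 and 0 to 236 with IL-4 in Egr2flfl, 0 to 45 and 0 to 24 in LyzMCreEgr2flfl, and 0 to 189 and 0 to 50 for the interaction. By the 2.5-fold criterion the ranges were 80 to 188 higher at 24 h, 145 to 283 lower at baseline, 36 to 96 lower with IL-4 in Egr2flfl and 286 to 575 lower in LyzMCreEgr2flfl. For the other targets, lower and higher, the ranges were 432 to 895 and 12 to 31 for H3K27ac, 109 to 311 and 1 to 21 for H3K4me2, 0 to 86 and 0 to 1 for C/EBPb, 0 to 243 and 0 to 2 for PU.1, and 0 to 2 lower for STAT6.

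A replicate block left the PPARg counts at 0. The labels tie the replicate numbers to no shared animal or day. Between groups the correlation of replicate differences was 0.00659 to 0.0955 for PPARg, 0.097 to 0.152 for STAT6 and 0.00541 to 0.232 over the other targets. With the block, C/EBPb had 545 sites lower, H3K27ac 169 sites higher, H3K4me2 51 higher, PU.1 11 higher and STAT6 196 lower. Alternatives for the other targets were chosen after seeing the data. A pseudocount of 5 gave 730 lower and 1 higher for C/EBPb, 663 and 7 for PU.1 and 144 lower for STAT6. Median-ratio scaling gave 0 lower for C/EBPb and STAT6, 243 and 143 for PU.1, 496 and 536 for H3K27ac and 169 and 45 for H3K4me2. Each group had 2 libraries, and 3 libraries had 65.9% to 66.8% of sites at 0.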
